A study of Mus musculus with 47 samples.

Results

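The 84 genes described here encode, or help to assemble, the protein complexes of mitochondrial oxidative phosphorylation. Their transcripts were profiled with Affymetrix arrays in 47 lymphoblastic T-cell tumours of mice. They were taken by symbol: every gene whose symbol begins with Nduf, Uqcr or Atp5 or with Cox4 to Cox8, and Sdha to Sdhd. By symbol they comprise 34 complex I genes, 5 complex I assembly factors (Ndufaf), 4 complex II genes, 8 complex III genes, 16 complex IV genes and 17 ATP synthase genes, of 12393 genes with a probe set that names 1 gene. All 84 were among the 8810 genes tested. A symbol does not always give the place of a protein: Ndufa4 is known as a complex IV subunit and Cox7a2l as an assembly factor for supercomplexes, and both are counted here under their symbols.

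The tumours came from mice of 14 genetic backgrounds. There were 9 tumours from Cdkn2a knockout mice with retroviral insertional mutagenesis and 6 from TLX1 transgenic mice. The beta-catenin transgenic, Ikaros Plastic, Nup98HoxD13 transgenic, p53 knockout, ThPOK transgenic, LMO1 transgenic, olig1-LMO1 double transgenic and Tal1-LMO2 double transgenic backgrounds had 3 tumours each, and the Pokemon transgenic, rag E2A knockout, Tal1 transgenic and E2A knockout backgrounds had 2 each. The 6 TLX1 transgenic tumours are labelled TLX1 positive and the other 41 TLX1 negative, so TLX1 status and the TLX1 transgene are a single contrast in these data and cannot be told apart. Neither age nor strain, nor the promoter behind any transgene, is stated in the labels, which also name no normal or control group. Each background was therefore set against the unweighted mean of the other 13, and these comparisons share tumours with each other.

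Complex I takes electrons from NADH and complex II takes them from succinate. Both pass them through ubiquinone to complex III, then by cytochrome c to complex IV, which reduces oxygen, and the proton gradient that complexes I, III and IV build drives ATP synthase. Most subunits are encoded in the nucleus, and each complex is assembled from subunits that are needed together. Proliferating T cells are known to use glycolysis and oxidative phosphorylation side by side.

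Values are MAS5 signals, a linear summary of probe intensity in arbitrary units, which the authors had scaled so that every array has the same trimmed mean. Array medians ranged from 49.6 to 106 units. On the log2 scale, log2(signal + 15.9) was analysed, and a gene was called higher or lower at an adjusted p under 0.05 in limma with Benjamini-Hochberg adjustment over all tested genes. At least 5 of the 7 tested T cell markers lay above the array median in 46 tumours. The exception was p53 knockout tumour 2, with 1 of 7 T cell markers above the median and a summed T cell signal of 1545, against 15550.1 and 15516 in the other p53 knockout tumours. Its summed muscle signal (12 tested markers) was 10997, against 372 and 414, and its summed stroma signal (7 markers) was 20068, against 5008 and 3616. The p53 differences of the oxidative phosphorylation genes are given with and without it. In such bulk RNA, fewer cells of a type and less RNA per cell cannot be told apart.

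Of the 84 genes, 74 had a signal above the array median on all 47 arrays (88.1%, against 50.1% of all tested genes). The 10 others were Cox8b (above the median in 10 tumours), Cox4i2 (2), Cox7a1 (15), Cox6a2 (18), Cox6b2 (34), Ndufb1 (38), Cox8c (45), Ndufaf5 (45), Cox7c (46) and Ndufaf7 (46). Among these, Cox4i2, Cox6a2, Cox6b2, Cox7a1, Cox8b and Cox8c are known as tissue-restricted isoforms of complex IV subunits whose common forms are Cox4i1, Cox6a1, Cox6b1, Cox7a2 and Cox8a.

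As deposited, 67 of the 84 genes (79.8%) differed among the 14 backgrounds by limma's moderated F-test, against 68.1% of all tested genes. After quantile normalization, which gives every array the same distribution of signals, 52 of 84 (61.9%) did, against 63.5% of all tested genes. The SD between the 14 background means had a median of 0.32 log2 units over the 84 genes, against 0.38 over all tested genes, and 0.22 against 0.37 after quantile normalization. Most of these genes therefore spread less among backgrounds than the median tested gene: 57 of 84 as deposited and 71 of 84 after quantile normalization. The lowest adjusted p-values of the F-test as deposited belonged to Ndufs5 (9.92e-14), a complex I subunit of the intermembrane space side, and Cox8c (5.34e-11). Cox6b1 (1.49e-08), Atp5md (8.52e-08), Atp5pb (9.26e-08), Cox7a2 (2.8e-07), Cox6a1 (5.21e-07), Cox5a (6.3e-07), Ndufc2 (7.72e-07), Ndufa6 (1.13e-06), Ndufb8 (1.51e-06) and Atp5g3 (1.52e-06) followed. Across the 47 tumours, the median correlation between pairs of these genes was 0.38 as deposited and 0.27 after quantile normalization, against 0.01 for pairs among 1000 tested genes. By complex it was 0.57 for ATP synthase, 0.54 for complex III, 0.46 for complex I, 0.41 for complex II and 0.13 for complex IV as deposited. The 16 complex IV genes include the tissue-restricted isoforms named above, none of which lay above the array median on all arrays. The common complex IV genes were not taken alone. These correlations are descriptions: the points share arrays and their scaling.

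For each tumour, the median over the 84 genes of the log2 value centred on the gene's mean was taken as a summary. Its mean was highest in the Tal1 transgenic background (tumours at 0.29 and 0.60), and the lowest single value was that of a p53 knockout tumour; the 3 p53 knockout tumours gave 0.13, -0.60 and 0.10. The E2A knockout tumours gave 0.47 and 0.11, the rag E2A knockout tumours 0.033 and 0.35 and the Tal1-LMO2 double transgenic tumours 0.057, 0.16 and 0.29. At the low end were the beta-catenin transgenic (-0.36, -0.22 and -0.54), Ikaros Plastic (-0.31, -0.11 and -0.38) and Nup98HoxD13 transgenic tumours (-0.30, -0.060 and -0.13) and the Cdkn2a knockout tumours (-0.25 to -0.0097 (median -0.15)). After quantile normalization the Tal1 transgenic tumours gave 0.086 and 0.30, the Ikaros Plastic tumours -0.067, 0.047 and -0.11, the beta-catenin transgenic tumours -0.30, -0.18 and -0.44 and the Cdkn2a knockout tumours -0.25 to -0.027 (median -0.14). All 3 beta-catenin transgenic and all 9 Cdkn2a knockout tumours stayed below 0 on both scales, whereas the Ikaros Plastic tumours lay on both sides of 0 after quantile normalization.

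**Figure D1:**
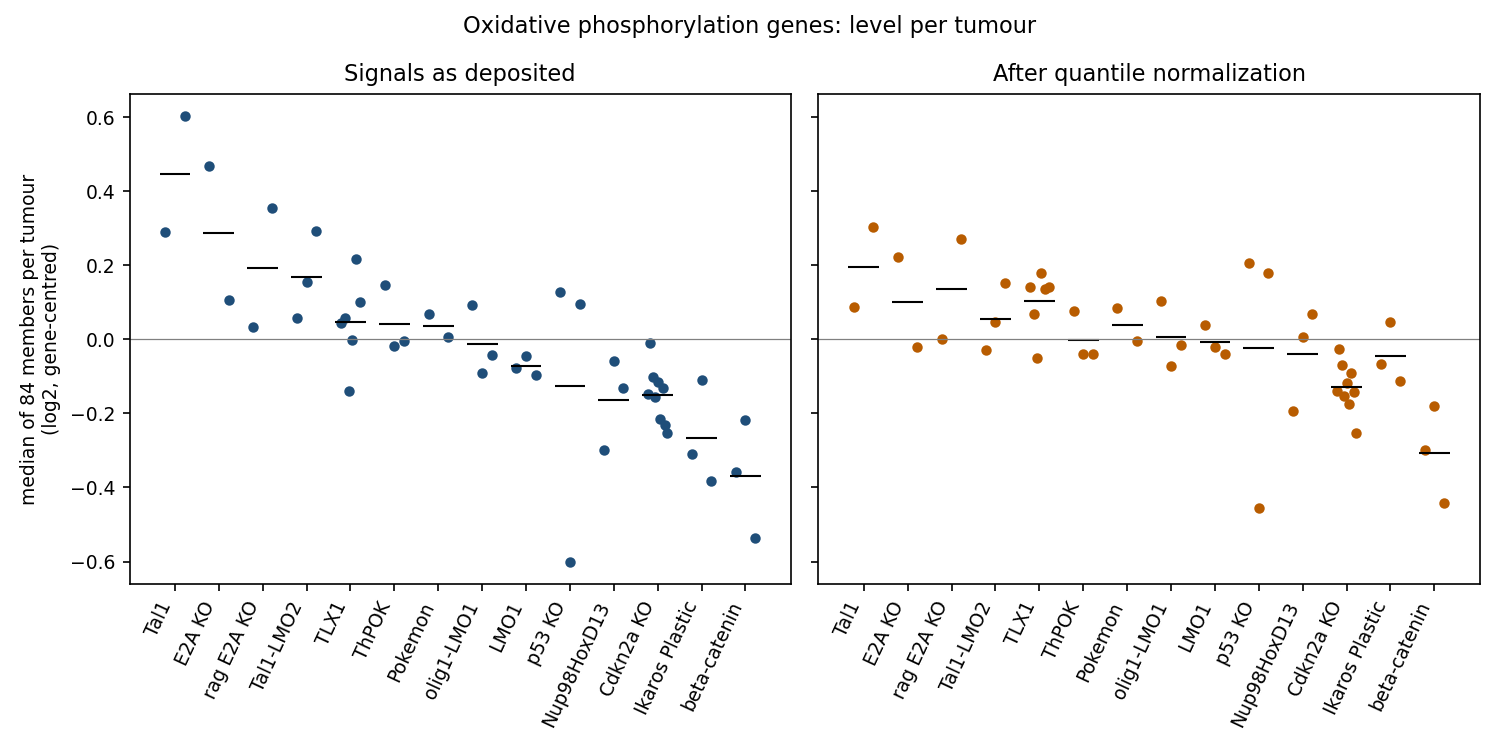
Median over the 84 oxidative phosphorylation genes of the gene-centred log2 value (y axis), 1 point per tumour, by genetic background (x axis), with a bar at each background's mean. As deposited (left) the Tal1 transgenic background had the highest mean (tumours at 0.29 and 0.60), and after quantile normalization (right) the beta-catenin transgenic tumours had the lowest mean (-0.31) while 1 p53 knockout tumour was the lowest single point on both scales.

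Promoters of 70 of the 84 genes were found in RefSeq sequence of build GRCm38.p6, as 300 bases from 250 before to 50 after each gene's start. No entry was matched for Atp5a1, Atp5mpl, Cox4i1, Cox4i2, Cox6a2, Cox6c, Cox8c, Ndufa2, Ndufb9, Ndufs1, Sdhc, Uqcrb, Uqcrc2 and Uqcrq. Letters of binding motifs known for mitochondrial genes were searched on both strands, and matches of different motifs may overlap. The NRF1 letters, GCGCA and GCGC with any 1 base between, were in 16 of 70 (22.9%), against 5.19% of all genes with a promoter and 9.35% of those on the array. The ETS letters CCGGAAG were in 18 (25.7%, against 9.93% and 16.3%) and the YY1 letters AANATGGCG in 9 (12.9%, against 2.76% and 4.72%), 6 of these in complex I. At least 1 of the 3 was in 38 (54.3%, against 15.9% and 26.6%). The TATA box letters TATAAA were in 7 (10%, against 15.7% and 11.9%). A match is a description of letters and shows no binding.

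Below are 5 promoters, 5′ to 3′ on the gene's strand, with motif letters in capitals. Ndufs5 and Ndufa5 are shown because Ndufs5 had the lowest p of the F-test and Ndufa5 the largest difference in the beta-catenin background, Cox6a1 as a common complex IV isoform called in 5 backgrounds, and Cox8a and Cox8b as the common and the muscle isoform of the same subunit. All 5 genes lie on the minus strand: Ndufs5 at chr4:123718137-123718436, Ndufa5 at chr6:24527477-24527776 (1 of 2 entries), Cox6a1 at chr5:115348909-115349208, Cox8a at chr19:7217567-7217866 and Cox8b at chr7:140900397-140900696.
Ndufs5: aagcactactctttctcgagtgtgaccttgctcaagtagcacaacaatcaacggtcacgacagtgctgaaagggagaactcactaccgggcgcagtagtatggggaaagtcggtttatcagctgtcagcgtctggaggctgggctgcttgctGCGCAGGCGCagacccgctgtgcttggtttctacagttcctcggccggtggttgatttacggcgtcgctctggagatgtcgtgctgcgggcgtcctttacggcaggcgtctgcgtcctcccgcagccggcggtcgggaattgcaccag
Ndufa5: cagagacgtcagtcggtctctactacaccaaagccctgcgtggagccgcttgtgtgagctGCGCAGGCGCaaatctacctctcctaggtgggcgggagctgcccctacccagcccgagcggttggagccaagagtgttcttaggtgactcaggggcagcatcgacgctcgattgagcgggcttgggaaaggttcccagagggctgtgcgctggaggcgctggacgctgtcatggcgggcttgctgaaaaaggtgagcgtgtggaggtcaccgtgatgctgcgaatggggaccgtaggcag
Cox6a1: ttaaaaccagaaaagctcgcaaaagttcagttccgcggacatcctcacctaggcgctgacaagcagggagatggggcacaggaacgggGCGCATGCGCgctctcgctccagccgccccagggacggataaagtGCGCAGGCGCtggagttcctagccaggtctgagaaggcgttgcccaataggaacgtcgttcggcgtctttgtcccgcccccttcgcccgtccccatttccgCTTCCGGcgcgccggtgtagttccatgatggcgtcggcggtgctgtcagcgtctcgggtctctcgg
Cox8a: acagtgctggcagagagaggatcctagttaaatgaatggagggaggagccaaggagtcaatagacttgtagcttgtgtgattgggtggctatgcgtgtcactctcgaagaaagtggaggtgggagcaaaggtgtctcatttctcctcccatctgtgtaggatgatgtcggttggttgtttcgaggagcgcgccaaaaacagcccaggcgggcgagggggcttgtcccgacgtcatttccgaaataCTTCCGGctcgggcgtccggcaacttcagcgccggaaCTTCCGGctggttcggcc
Cox8b: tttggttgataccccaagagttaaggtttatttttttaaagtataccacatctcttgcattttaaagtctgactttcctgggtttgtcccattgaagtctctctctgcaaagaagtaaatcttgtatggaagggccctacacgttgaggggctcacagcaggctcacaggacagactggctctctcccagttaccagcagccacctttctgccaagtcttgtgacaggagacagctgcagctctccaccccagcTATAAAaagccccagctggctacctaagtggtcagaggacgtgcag
Ndufs5 and Ndufa5 hold 1 NRF1 match each, Cox6a1 2 NRF1 matches and 1 ETS match, Cox8a 2 ETS matches, and Cox8b a TATA box and none of the other 3 motifs.

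The beta-catenin transgenic background had the most called genes: 40 of 84 were lower (against 7.42% of all tested genes) and 2 higher (11.4%), with a median log2 difference of -0.40 against 0.03 over all tested genes. Complex I, II and III held most of the lower genes, with 21 of 34, 3 of 4 and 6 of 8, and medians of -0.49, -0.47 and -0.58. ATP synthase had 7 of 17 lower (median -0.31) and complex IV 3 of 16 (-0.29). None of the 5 complex I assembly factors was called (median -0.087, with log2 differences from -0.22 to 0.35). After quantile normalization, 33 genes were lower (9.97% of all tested genes) and 2 higher (8.15%), and 32 of the 40 lower genes kept their call. With tumour 3 left out, 11 genes were lower and 1 higher, with a median of -0.32.

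Within complex I, Ndufa5, a subunit of the peripheral arm, had signals of 486, 482 and 399 in the beta-catenin transgenic tumours, against 518 to 2190.5 (median 1033) in the 44 other tumours. None of the other tumours reached down to the 3 values. The log2 difference was -1.18 ± 0.20 (adjusted p = 4.77e-05; -1.15 ± 0.19 after quantile normalization), and a second Ndufa5 probe set gave -0.71. Ndufs3, a core subunit of the arm that carries electrons, had signals of 679, 748 and 739.6, against 774 to 1613 (median 1136) in the others, again without overlap (-0.67 ± 0.13, adjusted p = 0.000452). Ndufa6, a supernumerary subunit, had 799.9, 1014 and 741, against 787 to 3079 (median 1489), and 4 of the 44 other tumours lay at or below the highest of the 3 (-0.86 ± 0.14, adjusted p = 5.49e-05). Ndufb8, a membrane arm subunit, had 1258, 1497 and 1086, against 1099 to 4073 (median 2000.1) (-0.76 ± 0.14, adjusted p = 0.00023). Ndufa2 was lower with signals of 887, 1032 and 841, against 592 to 3629.9 (median 1629) (-0.86 ± 0.20, adjusted p = 0.00245). The core subunits Ndufs1, Ndufs7, Ndufs8, Ndufv1 and Ndufv2 were also lower, with log2 differences of -0.43 to -0.56, and Ndufv1 and Ndufv2 lost their call after quantile normalization. Ndufa10 had 698, 974 and 936, against 968 to 2328 (median 1549) (-0.88 ± 0.15, adjusted p = 6.04e-05), but its other probe set, above the array median on 3 arrays only, gave 0.30, so the probe sets disagree in direction.

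In complex III, Uqcr10, Uqcr11, Uqcrq, Uqcrh and Uqcrb, small subunits around the core, and Uqcrc2, a core subunit of the matrix side, were lower, with log2 differences of -0.49 to -0.78. Uqcrq had signals of 915, 1128 and 855 in the beta-catenin transgenic tumours, against 1023 to 3039 (median 1456) in the 44 others, and 1 of the others lay within the range of the 3 (-0.67 ± 0.16, adjusted p = 0.00318). All 6 kept their call after quantile normalization. In complex II, Sdhb, the iron-sulfur subunit (-0.72 ± 0.22, adjusted p = 0.0171), and the membrane anchors Sdhc (-0.42 ± 0.14, adjusted p = 0.0241) and Sdhd (-0.51 ± 0.17, adjusted p = 0.0267) were lower, and none was called after quantile normalization (adjusted p of 0.0522, 0.0623 and 0.0621). In complex IV, Cox4i1, Cox6b1 and Cox7a2 were lower, and Cox8c was higher. In ATP synthase, Atp5c1, the gamma subunit of the rotor (-0.55 ± 0.14, adjusted p = 0.00421), Atp5g1, a gene for the c subunit of the ring (-0.72 ± 0.20, adjusted p = 0.00968), and Atp5pb, the b subunit of the stalk (-0.45 ± 0.12, adjusted p = 0.0052), were among the 7 lower genes. The catalytic subunits were not called: Atp5a1 differed by -0.18 ± 0.15 (adjusted p = 0.441) and Atp5b by -0.077 ± 0.14 (adjusted p = 0.749).

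**Figure D2:**
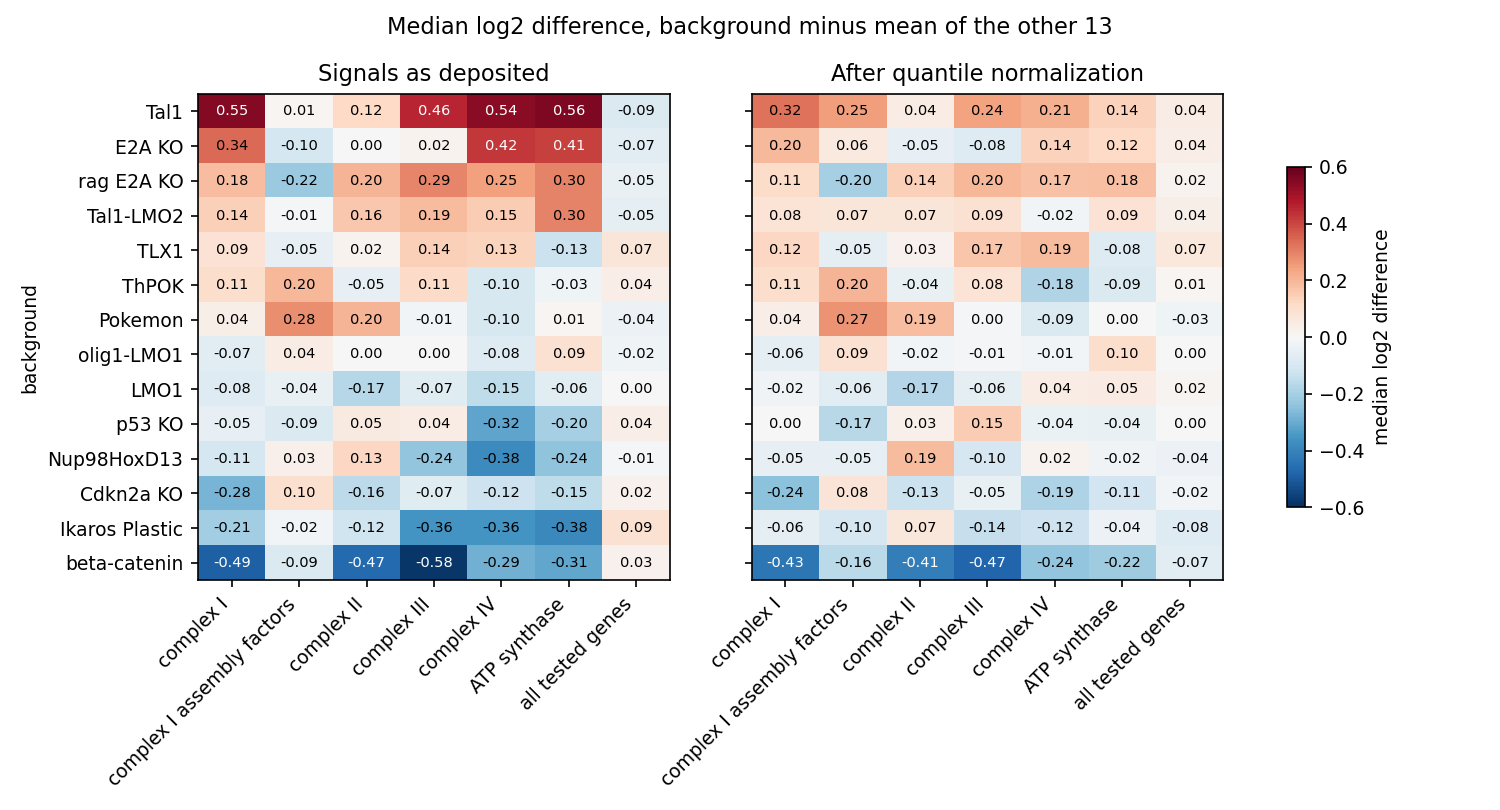
Median log2 difference of each background (rows) against the mean of the other 13, by complex and over all tested genes (columns), for the signals as deposited (left) and after quantile normalization (right). The colour scale is in log2 units; the beta-catenin transgenic row holds medians of -0.49 for complex I and -0.58 for complex III as deposited and -0.43 and -0.47 after quantile normalization, while the Ikaros Plastic medians of -0.36 to -0.38 for complexes III and IV and ATP synthase moved to between -0.04 and -0.14.

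In the Cdkn2a knockout tumours, 33 genes were lower (against 14.6% of all tested genes) and 1 was higher (16.1%), with a median of -0.18. Complex I held 20 of the 33 (of 34 genes, median -0.28), ATP synthase 6 of 17, complex IV 4 of 16 and complex III 3 of 8, and no complex II gene was called (median -0.16). After quantile normalization the counts were again 33 lower (16.2% of all tested genes) and 1 higher, 33 of 34 genes keeping their call and direction. Here 9 tumours stood behind each mean, and leaving out any 1 of them left 28 to 34 genes lower.

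Atp5md, a small ATP synthase subunit, had signals of 582 to 853 (median 767) in the Cdkn2a knockout tumours, against 609 to 3639.9 (median 1757) in the 38 others. Only 4 of the 38 lay at or below the highest of the 9. The log2 difference was -1.16 ± 0.12 (adjusted p = 1.61e-08; -1.10 ± 0.13 after quantile normalization). Ndufa13, a complex I subunit also known as Grim19, had 1168 to 1920.2 (median 1475), against 1508 to 4659 (median 2496), with 4 of 38 others at or below the highest (-0.85 ± 0.12, adjusted p = 2.5e-06). Ndufa3 had 1335 to 2055 (median 1509), against 1456 to 3737 (median 2441) (-0.60 ± 0.10, adjusted p = 1.83e-05). Ndufa5 was lower here too, with 518 to 941 (median 638), against 399 to 2190.5 (median 1053) (-0.60 ± 0.12, adjusted p = 0.000274). In complex IV the common isoforms Cox6b1 (-0.46 ± 0.07, adjusted p = 9.03e-06), Cox6a1 (-0.39 ± 0.08, adjusted p = 0.000361) and Cox4i1 (-0.28 ± 0.08, adjusted p = 0.00465) were lower. Atp5md was also lower in the Ikaros Plastic (617, 843 and 1076; -0.95 ± 0.20, adjusted p = 0.00108) and beta-catenin transgenic tumours (609, 1432 and 1101; -0.68 ± 0.20, adjusted p = 0.0145), and the 3 beta-catenin values spread widely.

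In the Tal1 transgenic tumours, 31 genes were called (against 4.96% of all tested genes), of which 30 were higher (3.1% of all tested genes) and 1, Ndufs5, was lower (1.86%), with a median of 0.48 against -0.09 over all tested genes. The higher genes were 13 of 34 in complex I, 2 of 8 in complex III, 7 of 16 in complex IV and 8 of 17 in ATP synthase. Cox7a2, the common isoform of a small complex IV subunit, had signals of 13036 and 13439.7, against 3179.9 to 11978 (median 5535) in the 45 other tumours, which it exceeded in both tumours (1.20 ± 0.16, adjusted p = 1.13e-05). Atp5md had 2901 and 3639.9, against 582 to 2644 (median 1566), also without overlap (1.15 ± 0.24, adjusted p = 0.00223). Atp5j2, a membrane subunit of ATP synthase, had 7897 and 8268, against 2489.6 to 6261 (median 3506), without overlap (1.14 ± 0.16, adjusted p = 2.08e-05). Cox5a had 9414 and 8672, against 2346 to 8042 (median 4269.7) (1.12 ± 0.17, adjusted p = 4.4e-05), and Uqcrb, a complex III subunit, 11723 and 12937, against 3599 to 11727 (median 5829) (1.06 ± 0.17, adjusted p = 9.89e-05).

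Most of these calls were lost on the other scale. After quantile normalization, 4 genes were higher (0.76% of all tested genes), Atp5j2, Atp5pb, Ndufb11 and Ndufc2, Ndufs5 was lower (0.397%), and the median was 0.21. Cox7a2 then differed by 0.31 ± 0.12 (adjusted p = 0.224) and Uqcrb by 0.20 ± 0.13 (adjusted p = 0.514). Atp5md (0.88 ± 0.25, adjusted p = 0.0668) and Ndufa2 (0.77 ± 0.23, adjusted p = 0.0787, against 1.03 ± 0.24 as deposited) lost their call with most of their difference kept. Without tumour 2 of the pair, 12 genes were higher as deposited, and without tumour 1, 25 were. In such fits of a single tumour, here and in the other backgrounds of 2, the spread comes from the other backgrounds, and the lone tumour is assumed to vary like them. Atp5md without tumour 2 (0.99, adjusted p = 0.103) was among the lost calls.

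The E2A knockout tumours had 13 called genes (against 4.34% of all tested genes), of which 12 were higher (1.51% of all tested genes) and Ndufs5 was lower (2.83%), with a median of 0.33 that became 0.12 after quantile normalization, when Ndufs5 alone was called (against 1.69% of all tested genes). Cox6a1, the common isoform of a complex IV subunit, had signals of 10312 and 7627, against 2994 to 10882 (median 5278) in the 45 others; 2 of these reached the lower of the pair (0.71 ± 0.16, adjusted p = 0.00447; 0.12 ± 0.10 after quantile normalization). Cox5a had 8042 and 6322, against 2346 to 9414 (median 4269.7) (0.75 ± 0.17, adjusted p = 0.00574), and Ndufa4 3531 and 3086, against 665 to 4531 (median 1984) (0.74 ± 0.21, adjusted p = 0.0356). Without tumour 1 no gene was higher, and without tumour 2, 13 were; the call of Ndufa4 was lost either way. In the rag E2A knockout tumours the median was 0.21, and Ndufb8 was higher in both settings, with 3338 and 4073, against 1086 to 4008 (median 1866) (0.89 ± 0.17, adjusted p = 0.00486; 0.77 ± 0.16 after quantile normalization). Its call was lost when either tumour was left out: Ndufb8 without tumour 1 or 2 (1.03 or 0.75, adjusted p = 0.0743 or 0.212). Ndufs5 was lower, so 2 of 84 genes were called (against 1.56% of all tested genes, 1.26% being lower). In the Tal1-LMO2 double transgenic tumours 5 genes were called (6.67% of all tested genes), of which 4 were higher (1.44%) and Ndufs5 lower (5.23%), among them Cox8a with 2843, 2066 and 3749.8, against 804 to 4671 (median 1649) (0.68 ± 0.21, adjusted p = 0.0472), Cox7a2 (0.47 ± 0.13, adjusted p = 0.028) and Atp5pb (0.43 ± 0.12, adjusted p = 0.0174), and none of these 3 was called after quantile normalization. Single tumours of the background also decided them: the calls lost were Atp5pb without tumour 1, 2 or 3 (0.41, 0.44 or 0.45, adjusted p = 0.105, 0.084 or 0.0946), Cox7a2 without tumour 2 or 3 (0.42 or 0.41, adjusted p = 0.173 or 0.194) and Cox8a without tumour 1 or 3 (0.67 or 0.47, adjusted p = 0.16 or 0.398).

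The Ikaros Plastic tumours had 30 called genes (against 22.8% of all tested genes), of which 28 were lower (7.85% of all tested genes) and 2 higher (15%), with a median of -0.30 against 0.09. ATP synthase had 9 of 17 lower, complex IV 7 of 16, complex I 10 of 34, complex III 1 of 8 and the assembly factors 1 of 5. Cox6c, a complex IV subunit, had signals of 3169, 3209 and 3255, against 2954 to 9879 (median 5122) in the 44 others; the 3 values were close together and 2 other tumours lay at or below them (-0.74 ± 0.14, adjusted p = 0.00042; -0.27 ± 0.12, adjusted p = 0.113 after quantile normalization). After quantile normalization 8 genes were lower (10.8% of all tested genes) and 5 higher (7.57%), and 7 of the 28 lower genes kept their call: Atp5md, Ndufa2, Ndufa5, Ndufb8, Ndufb11, Ndufaf7 and Cox6a1. Ndufa2 had 1106, 621 and 1078, against 592 to 3629.9 (median 1629) (-0.88 ± 0.20, adjusted p = 0.00221; -0.74 ± 0.19 after quantile normalization), and the call was lost for Ndufa2 without tumour 2 (-0.62, adjusted p = 0.111).

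In the Nup98HoxD13 transgenic tumours, 11 genes were called (against 3.01% of all tested genes), of which 10 were lower (1.63% of all tested genes) and Ndufs5 was higher (1.37%), and after quantile normalization Ndufs5 alone was called (1.16% of all tested genes). Cox5a had 2751, 3382 and 2591, against 2346 to 9414 (median 4399) (-0.65 ± 0.14, adjusted p = 0.0057; -0.27 ± 0.10, adjusted p = 0.206 after quantile normalization). Atp5d, the delta subunit of the rotor, had 2325, 1858 and 1953, against 2074 to 5270.1 (median 2876) (-0.56 ± 0.13, adjusted p = 0.0126), and Ndufa4 1341, 1348 and 1482, against 665 to 4531 (median 2040.0) (-0.60 ± 0.17, adjusted p = 0.049). Without tumour 1, 1 gene was lower, and without tumour 3 none was. Without tumour 2, 7 genes were lower, but Ndufs5 was no longer called.

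In the p53 knockout tumours, 19 genes were called (against 21.7% of all tested genes), of which 15 were lower (9.34% of all tested genes) and 4 higher (12.4%), with a median of -0.16. The count of lower genes rested on tumour 2, the library with few T cell markers: without it, 1 gene was lower, 4 were higher and the median was 0.089. After quantile normalization of all 47 arrays, 9 genes were lower (10.3%) and 4 higher (11%), with a median of -0.0038. Ndufa4 had signals of 1688, 665 and 1636, against 1202 to 4531 (median 2040.0) (-0.79 ± 0.17, adjusted p = 0.00156), the low value being tumour 2, and Ndufaf4, an assembly factor, 408, 202 and 560.0, against 304 to 1027 (median 605) (-0.69 ± 0.19, adjusted p = 0.0102). Without tumour 2 these differences were -0.36 ± 0.17 (adjusted p = 0.212) for Ndufa4 and -0.30 ± 0.21 (adjusted p = 0.438) for Ndufaf4. Ndufab1, the mitochondrial acyl carrier protein held in complex I, was higher in both settings (2314, 1689.9 and 2011, against 898 to 2515 (median 1403); 0.42 ± 0.14, adjusted p = 0.0267), and its difference was 0.53 ± 0.16 (adjusted p = 0.0404) without tumour 2.

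**Figure D3:**
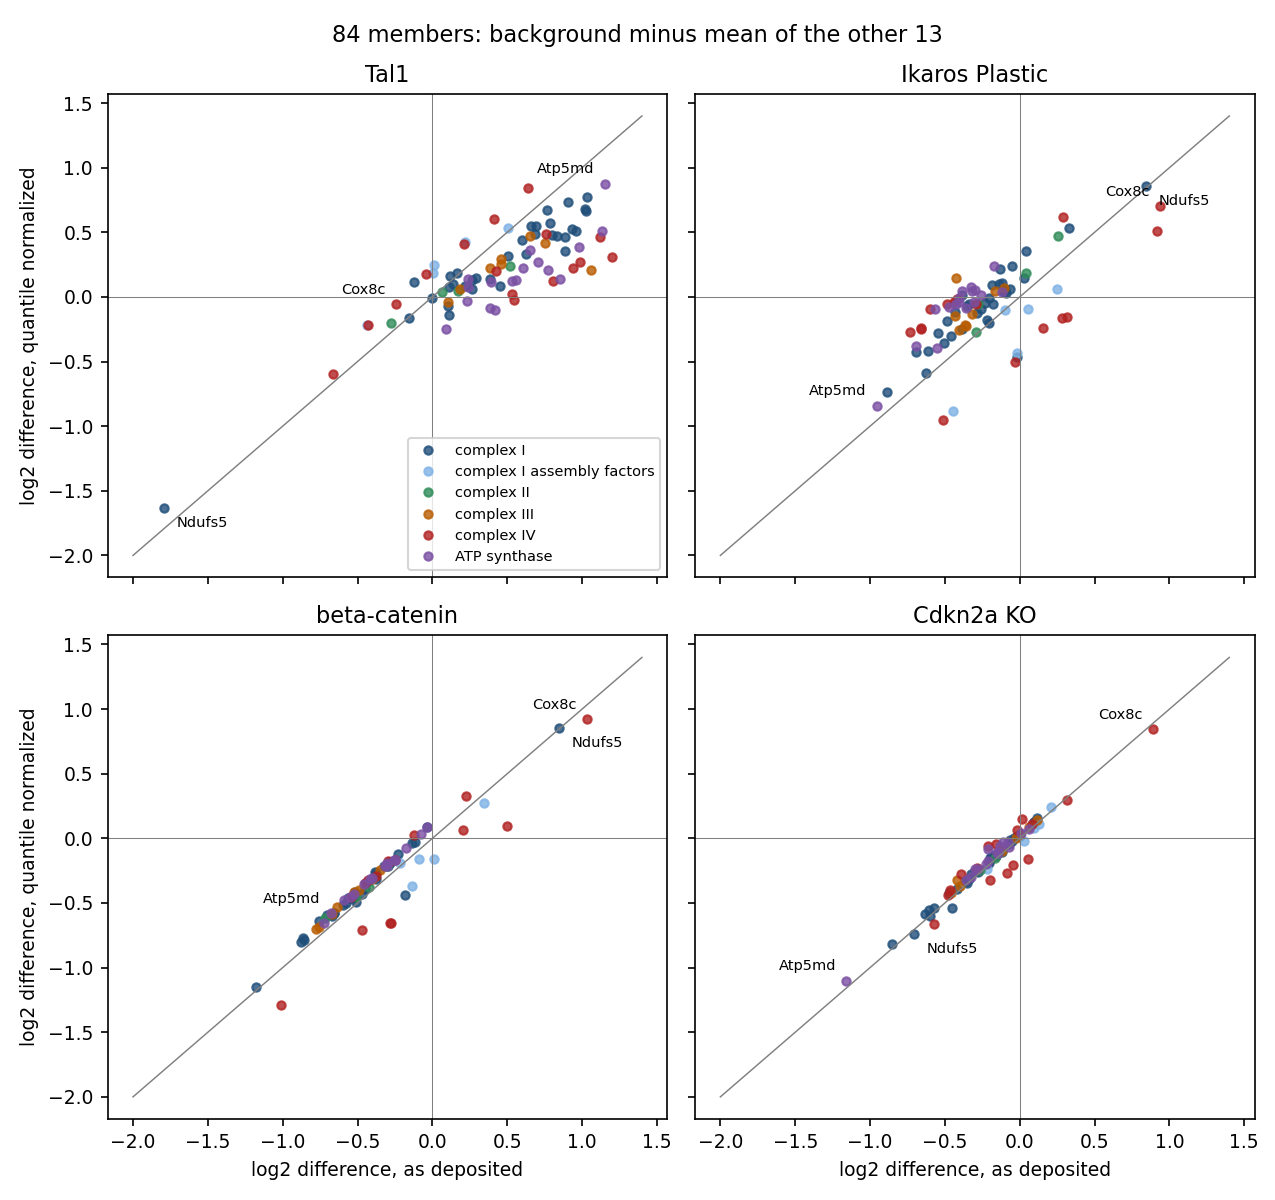
Log2 difference of each of the 84 genes as deposited (x axis) and after quantile normalization (y axis) in 4 backgrounds, coloured by complex; the grey diagonal marks equal values. Most Tal1 points lie below the diagonal (median 0.48 as deposited and 0.21 after), most Ikaros Plastic points above it (-0.30 and -0.06), and the beta-catenin (-0.40 and -0.34) and Cdkn2a knockout points (-0.18 and -0.15) close to it.

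The cytosolic ribosomal protein genes (41, all tested), a group of highly expressed housekeeping transcripts, were called in several of the same backgrounds. As deposited, 31 of 41 (against 3.1% of all tested genes) were higher in the Tal1 transgenic tumours (median 0.95). In the E2A knockout tumours 28 (against 1.51%) were higher (median 0.70). In the Ikaros Plastic tumours 33 (against 7.85%) were lower (median -0.64), and in the Nup98HoxD13 transgenic tumours 30 (against 1.63%) were (median -0.68). After quantile normalization these medians were 0.042, 0.019, -0.039 and 0.015. In the beta-catenin background, where the oxidative phosphorylation genes were lower, 2 of the 41 were higher and none lower. Over all tested genes, 11.4% were higher and 7.42% lower there. The median of the 41 was -0.068, and 0.047 after quantile normalization. Array medians were 53.3 to 61.6 in the Tal1 transgenic, 54.6 to 58.5 in the E2A knockout, 94.6 to 106 in the Ikaros Plastic and 84.1 to 93.9 in the beta-catenin transgenic tumours. The part of array scaling in these shifts was not tested.

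Markers of other cell types differed between some of these backgrounds. In the beta-catenin transgenic tumours 3 of 4 tested B cell markers and 2 of 10 myeloid markers were higher (against 11.4% of all tested genes). The summed B cell signal there was 5246 to 6889.7, against 98.4 to 12834 in the other tumours. In the Cdkn2a knockout tumours 3 of 7 stroma markers were higher (against 16.1% of all tested genes) and 2 of 7 T cell markers were lower (14.6%). The summed stroma signal there was 2523 to 6339.6, against 182 to 20068 in the other tumours. In the Ikaros Plastic tumours 4 of 7 stroma and 3 of 4 thymic epithelium markers were higher (against 15% of all tested genes). Their summed stroma signal was 2966 to 7632. In the E2A knockout tumours 6 of 7 stroma markers were lower (against 2.83% of all tested genes), with summed signals of 206 to 870.1. All 7 were lower in the Tal1-LMO2 double transgenic tumours (against 5.23%), with summed signals of 182 to 388. In the TLX1 transgenic tumours 6 of 7 stroma and 6 of 10 myeloid markers were higher (against 19% of all tested genes). Their summed stroma signal was 1583 to 9111. The summed myeloid signal was 57699 in TLX1 transgenic tumour 2 and 2922 to 9474 in the others of that background. It was 893 to 9724 in the other backgrounds. The part of these cell types in the differences of the oxidative phosphorylation genes was not tested.

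In the TLX1 transgenic tumours, 12 genes were higher (against 19% of all tested genes) and 11 lower (12.5%), with a median of 0.062 against 0.07. After quantile normalization 21 were higher (18.3%) and 9 lower (12.8%), so the higher share lay below that of all tested genes on 1 scale and above it on the other. With the Gapdh ratio given below as a covariate, 3 of the 84 genes were called, and calls over all tested genes were not counted. TLX1 status was compared in a separate fit without a term for background. Compared with the 41 TLX1 negative tumours as a whole, 8 of the 84 genes were higher in the TLX1 positive tumours (12.6% of all tested genes) and 3 lower (8.86%). After quantile normalization these counts were 17 and 3 (13.4% and 9.4%). The higher genes were Ndufa2, Ndufa13, Ndufs7 and Ndufv3 of complex I and Cox6a2, Cox6b2, Cox7a2l and Cox8b, and the lower genes were Ndufa9, Atp5o and Cox8c. Cox7a2l had 1779 to 5589 (median 2511) in TLX1 positive tumours, against 1026 to 3007 (median 1563) in TLX1 negative tumours (0.72 ± 0.17, adjusted p = 0.00248). Ndufs7, a core complex I subunit, had 1127 to 1339 (median 1230.0), against 658 to 1292 (median 964) (0.33 ± 0.10, adjusted p = 0.0195), and 9 of 41 TLX1 negative tumours reached the lowest of the 6. Ndufv3 had 1483 to 2791 (median 2323), against 738 to 2653 (median 1452) (0.59 ± 0.17, adjusted p = 0.00869).

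Ndufa9, a complex I subunit at the junction of its arms, had 841 to 1165 (median 1034) in TLX1 positive tumours, against 723 to 2031 (median 1409) in TLX1 negative tumours (-0.44 ± 0.12, adjusted p = 0.00671). Atp5o, the stalk subunit that confers oligomycin sensitivity, had 1340.0 to 2376 (median 1991), against 1551 to 3616 (median 2411) (-0.42 ± 0.13, adjusted p = 0.0167), and its other probe set gave -0.023. Ndufa2 (0.67 ± 0.22, adjusted p = 0.0266) and Ndufa13 (0.61 ± 0.21, adjusted p = 0.0337) were also higher, and 19 and 11 of the 41 TLX1 negative tumours reached the lowest TLX1 positive value. The log2 ratio of the 3' to the 5' Gapdh control probe sets, a measure of RNA integrity and labelling, was 0.27 to 2.86 in TLX1 positive tumours, against -0.53 to 0.71 in TLX1 negative tumours. With this ratio as a covariate, or with background as a random block, none of the 84 genes was called for TLX1 status. Without TLX1 transgenic tumours 2, 5 and 6, 1 was. Calls over all tested genes were not counted in these fits, so the loss cannot be read as particular to the 84 genes. The mean Gapdh ratio also differed among TLX1 negative backgrounds. It was 0.35 in p53 knockout and 0.14 in Tal1 transgenic tumours. In beta-catenin transgenic, Ikaros Plastic and Cdkn2a knockout tumours it was -0.42, -0.36 and -0.35, and -0.31 to -0.12 in the remaining ones. The covariate was fitted for the TLX1 comparisons only, so its part in the other backgrounds was not tested. With single TLX1 positive tumours left out, the calls lost for TLX1 status included Atp5o without tumour 2 or 3 (-0.33 or -0.34, adjusted p = 0.103 or 0.0824), Ndufs7 without tumour 6 (0.30, adjusted p = 0.0556), Ndufa2 without tumour 2, 5 or 6 (0.57, 0.63 or 0.60, adjusted p = 0.106, 0.0719 or 0.0775) and Ndufa13 without tumour 2, 4 or 5 (0.55, 0.52 or 0.58, adjusted p = 0.106, 0.11 or 0.0862).

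Few of these genes were called in the remaining backgrounds. In the ThPOK transgenic tumours 3 were higher (6.61% of all tested genes) and 3 lower (5.21%). Ndufa3 had 3737, 3472 and 3029, against 1335 to 3571 (median 2229) (0.57 ± 0.16, adjusted p = 0.0152; adjusted p = 0.0669 after quantile normalization). Cox8a, the common isoform of that complex IV subunit, had 1196, 1123 and 1162, against 804 to 4671 (median 1738) (-0.68 ± 0.21, adjusted p = 0.0343), and Sdha, the flavoprotein subunit of complex II, 1314, 1124 and 1027, against 994 to 2101 (median 1534) (-0.41 ± 0.13, adjusted p = 0.0391; adjusted p = 0.0561 after quantile normalization). Ndufc1 was lower (711, 604 and 600.2, against 677 to 2632 (median 1011); -0.80 ± 0.18, adjusted p = 0.00311), but its other probe set gave 0.090. In the LMO1 transgenic tumours 1 of 84 genes was called, against 1.03% of all tested genes (0.363% lower). The olig1-LMO1 double transgenic tumours had 1, against 0.658% (0.454% lower), and the Pokemon transgenic tumours 1, against 0.953%. It was Ndufs5 in each. In the ThPOK transgenic tumours the calls lost with single tumours left out were Ndufa3 without tumour 1 or 2 (0.50 or 0.56, adjusted p = 0.117 or 0.0857), Cox8a without tumour 1, 2 or 3 (-0.70, -0.66 or -0.68, adjusted p = 0.112, 0.149 or 0.146) and Sdha without tumour 1, 2 or 3 (-0.50, -0.39 or -0.33, adjusted p = 0.0554, 0.163 or 0.277).

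Ndufs5 stood apart from the other complex I genes. Its signals were 105 and 106 in the rag E2A knockout, 139 and 108 in the E2A knockout, 129, 105 and 159 in the Tal1-LMO2 double transgenic, 164 and 129.7 in the Tal1 transgenic and 249, 173 and 142 in the olig1-LMO1 double transgenic tumours. The Cdkn2a knockout tumours had 180.5 to 595 (median 279.7), with tumours 2, 4, 5, 6 and 7 at 180.5 to 279.7 and tumours 1, 3, 8 and 9 at 416 to 595. Every tumour of the other 8 backgrounds was higher than all of these: 769, 1635 and 863 in the Nup98HoxD13 transgenic, 818, 918 and 866 in the beta-catenin transgenic, 889, 896 and 813 in the Ikaros Plastic, 977, 1045 and 1000.4 in the LMO1 transgenic, 1062 to 1546 (median 1262) in the TLX1 transgenic, 1595, 1306 and 1175 in the ThPOK transgenic, 1369 and 1504 in the Pokemon transgenic and 2479, 871 and 1772 in the p53 knockout tumours. Among the 5 lowest backgrounds, the Tal1-LMO2 double transgenic tumours overlapped with each of the others, and the rag E2A knockout tumours lay below the E2A knockout, Tal1 transgenic and olig1-LMO1 double transgenic tumours. The LMO1 transgenic tumours lay above all olig1-LMO1 double transgenic tumours.

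In the fit, Ndufs5 was called in all 14 backgrounds as deposited and in 13 after quantile normalization (LMO1 transgenic, adjusted p = 0.0562). In 5 backgrounds the call was lost when some single tumour of the same background was left out, with log2 differences that stayed above 0. This held for each of the 3 beta-catenin transgenic tumours (adjusted p of 0.0534, 0.0799 and 0.0761), Ikaros Plastic tumours 1 and 2 (0.0509 and 0.101), Nup98HoxD13 transgenic tumour 2 (0.219), each of the 3 LMO1 transgenic tumours (0.0966, 0.156 and 0.157) and each of the 2 Pokemon transgenic tumours (0.101 and 0.236). The differences ran from -2.24 ± 0.30 in the rag E2A knockout (adjusted p = 2.34e-05) to 1.75 ± 0.25 in the p53 knockout tumours (adjusted p = 1.03e-05; 2.17 ± 0.27 (adjusted p = 4.45e-06) without tumour 2). Each difference is taken from a mean of 13 backgrounds that includes the low ones. A single probe set gave these values. A separate probe set, listed for both Ndufs5 and Ndufs5-ps and left out of the fit, had 575 to 1374 in the 12 tumours of the 5 lowest backgrounds, against 494 to 1420 in the 26 tumours of the 8 highest, which overlap throughout. It was lowest in the Cdkn2a knockout (302 to 682), Ikaros Plastic (494 to 601) and beta-catenin transgenic tumours (556 to 565). The large differences of Ndufs5 are therefore those of 1 probe set, and why the probe sets differ was not tested.

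**Figure D4:**
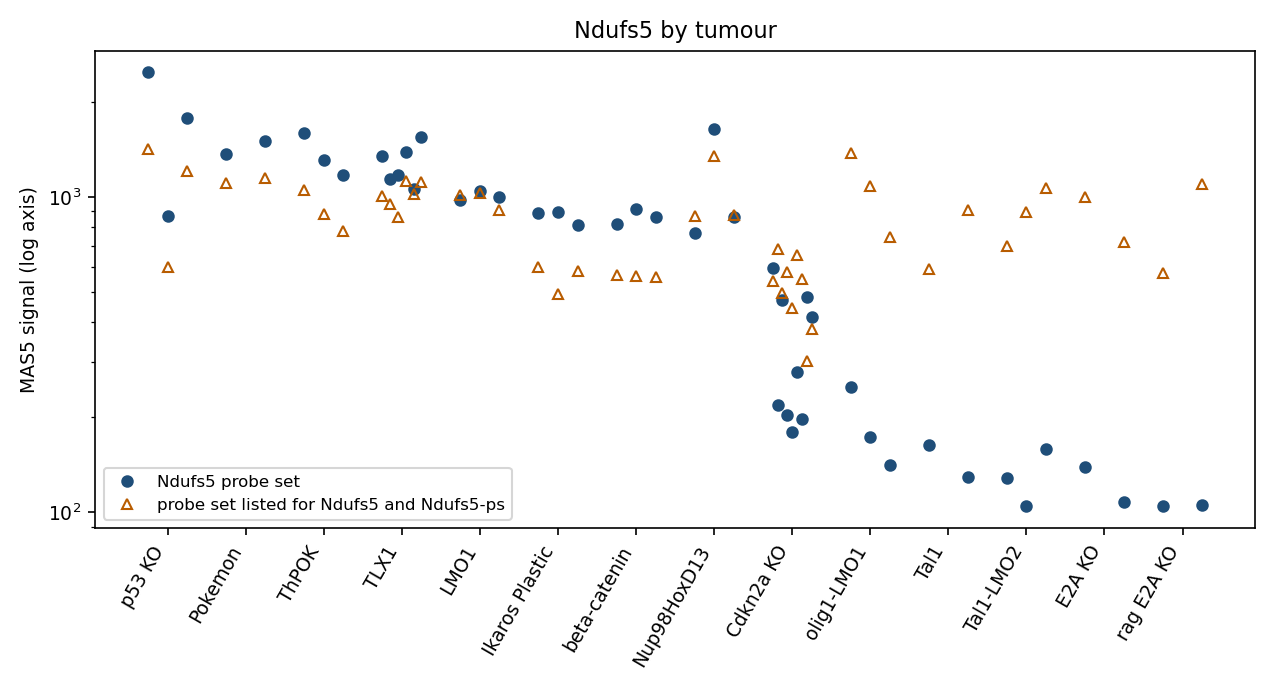
MAS5 signal (y axis, log scale) of the Ndufs5 probe set (filled circles) and of the probe set listed for Ndufs5 and Ndufs5-ps (open triangles) in each tumour, by background (x axis, ordered by the median of the Ndufs5 probe set). The Ndufs5 probe set lies at 105 to 249 in the 5 backgrounds on the right and at 769 to 2479 in the 8 on the left, while the triangles stay between 302 and 1420 throughout.

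Cox8c, an isoform of complex IV subunit 8 that is known from testis, was higher in 4 backgrounds. Its signals were 253, 270.4 and 248 in the beta-catenin transgenic, 234, 261 and 227 in the Ikaros Plastic, 220.2, 219 and 196 in the ThPOK transgenic and 196 to 319 (median 226) in the Cdkn2a knockout tumours. No tumour of the other 10 backgrounds exceeded 122, so these 18 tumours did not overlap with the other 29. The log2 differences were 1.03 ± 0.14 (adjusted p = 2.35e-06), 0.93 ± 0.14 (3.64e-05), 0.75 ± 0.14 (0.000667) and 0.89 ± 0.09 (2.91e-09) in the same order, and all kept their call after quantile normalization. It was lower in the TLX1 transgenic (45.4 to 105 (median 84.0); -0.59 ± 0.10, adjusted p = 5.3e-05) and p53 knockout tumours (90.0, 67.8 and 75.7; -0.63 ± 0.14, adjusted p = 0.00169, and -0.56 ± 0.17 (adjusted p = 0.0388) without tumour 2). For both backgrounds, the mean of the other 13 includes the 4 high ones. The rag E2A knockout tumours (106 and 79.2) overlapped with both, whereas the p53 knockout tumours lay below both E2A knockout tumours (112 and 94.1). A comparison with the other low backgrounds alone was not tested. With the Gapdh 3' to 5' ratio as a covariate, Cox8c differed by -0.38 ± 0.16 (adjusted p = 0.204) in the TLX1 transgenic background. Between TLX1 positive and TLX1 negative tumours it then differed by 0.024 ± 0.37 (adjusted p = 0.991). Without that covariate, the Cox8c call for TLX1 status was lost without TLX1 transgenic tumour 2, 5 or 6 (-0.74, -0.74 or -0.61, adjusted p = 0.0621, 0.0585 or 0.107).

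The muscle and heart isoforms Cox6a2 and Cox8b and the testis isoform Cox6b2 were the other outlying complex IV genes. Cox8b had signals of 44.1 to 249 (median 70.1) in the TLX1 transgenic tumours, against 0.964 to 234 (median 14.7) in the 41 others (1.44 ± 0.41, adjusted p = 0.00687), and 44.6, 168 and 91.8 in the p53 knockout tumours, against 0.964 to 249 (median 19.1) in the 44 others (1.52 ± 0.56, adjusted p = 0.0455). Cox6a2 had 1094, 109, 100.4, 146, 672 and 14.7 in TLX1 transgenic tumours 1 to 6, against 11.6 to 396 (median 63.6) in the 41 others (1.32 ± 0.37, adjusted p = 0.00578), and 2 of the 6 lay far above the rest. The call was lost for Cox6a2 without tumour 1 or 5 (0.82 or 0.96, adjusted p = 0.0614 or 0.0541). In the p53 knockout tumours Cox6a2 had 396, 179.7 and 225, against 11.6 to 1094 (median 63.6) (1.82 ± 0.50, adjusted p = 0.00868). Without p53 knockout tumour 2 the differences of that background were 2.05 ± 0.61 (adjusted p = 0.0348) for Cox6a2 and 1.13 ± 0.67 (adjusted p = 0.343) for Cox8b. The p53 knockout call was also lost for Cox6a2 without tumour 1 (1.51, adjusted p = 0.0658). Cox6b2 had 140.2 to 934 (median 277) in the TLX1 transgenic tumours, against 14.8 to 303 (median 101) (1.45 ± 0.30, adjusted p = 0.000375).

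Markers of muscle and brown fat varied between the same tumours. Cox8b was highest in TLX1 transgenic tumour 5 (249), where myoglobin (Mb) had 1371 and Actc1 1310.5. Next came Cdkn2a knockout tumour 3 (234; the brown fat marker Ucp1 92.0, Cidea 111), Ikaros Plastic tumour 1 (196; Ucp1 266, Cidea 256), p53 knockout tumour 2 (168; Mb 599, Ckm 1172) and Pokemon transgenic tumour 1 (101; Ucp1 151). All 5 had Mb or Ucp1 above the array median, as did 9 of all 47 tumours. Mb did not stand for the whole muscle list. LMO1 transgenic tumours 2 and 3, which are not among the 9, each had 8 muscle markers above the array median. Their summed muscle signals were 2395 and 4713, with Mb at 1.76 and 15.8 and Cox8b at 69.8 and 33.7. Leaving out the 9 therefore does not remove every tumour with high muscle markers. Cox6a2 was highest in TLX1 transgenic tumour 1 (1094), where Mb (63.7) and Ucp1 (31.1) lay below the array median of 73.0. The summed signal of the 12 tested muscle markers was 293 to 8643 in the TLX1 transgenic and 372 to 10997 in the p53 knockout tumours, against 149.9 to 4713 in the other backgrounds. Without the 9 tumours, the log2 difference of the TLX1 transgenic background was 1.22 ± 0.39 (adjusted p = 0.0291) for Cox8b, 1.04 ± 0.52 (adjusted p = 0.164) for Cox6a2 and 0.97 ± 0.40 (adjusted p = 0.0866) for Cox6b2. The part of other tissue in the remaining differences was not tested.

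**Figure D5:**
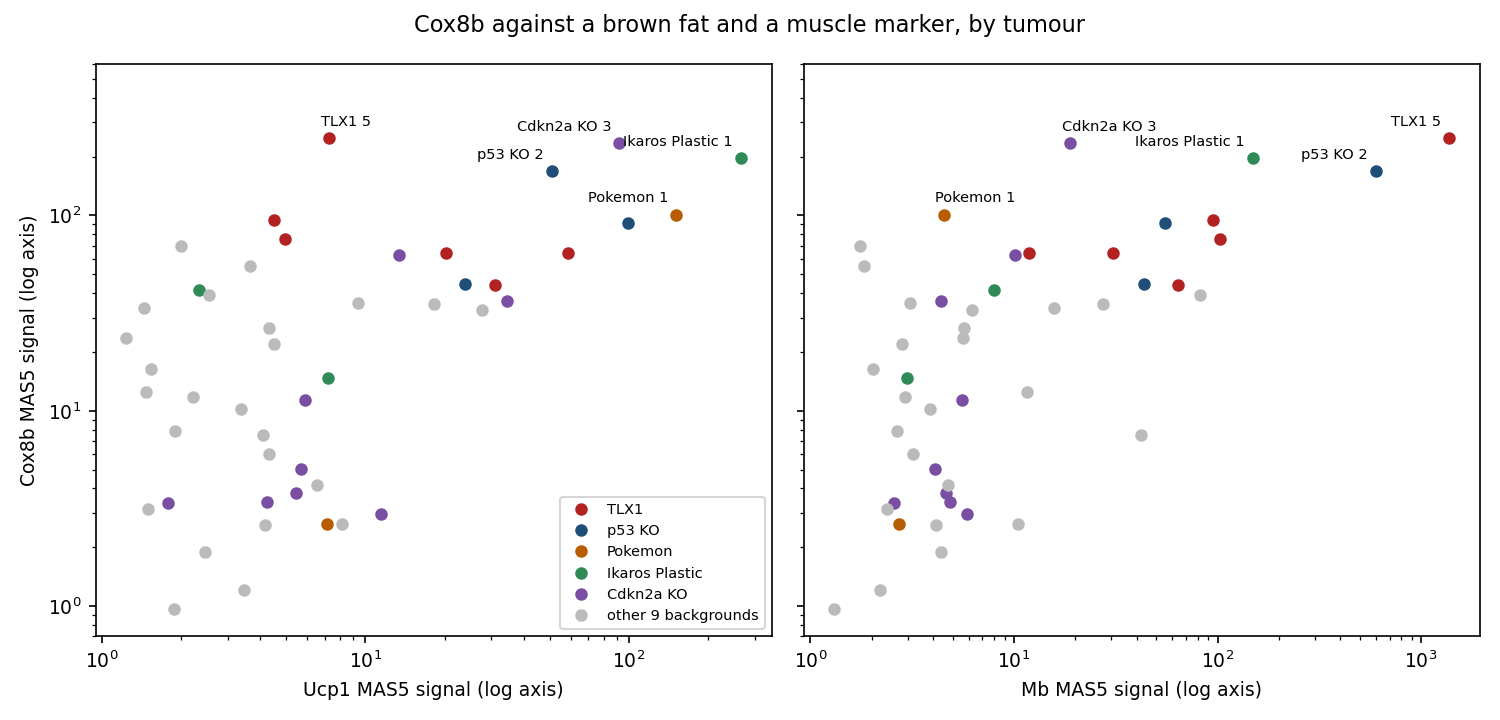
Cox8b signal (y axis, log scale) against the brown fat marker Ucp1 (left) and the muscle marker Mb (right) in each of the 47 tumours, log scale on both x axes; the 5 tumours with Cox8b above 100 are named. All 5 have Ucp1 or Mb among the high values: Ucp1 is 266 in Ikaros Plastic tumour 1, and Mb is 1371 in TLX1 transgenic tumour 5.

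Other mitochondrial genes, taken from lists by function, were compared in the same fits. Of 14 genes of the tricarboxylic acid cycle and pyruvate dehydrogenase, 2 were lower in the beta-catenin transgenic tumours (against 7.42% of all tested genes) and none higher (median -0.28): Idh3b (-0.52 ± 0.14, adjusted p = 0.00732) and Pdha1 (-0.50 ± 0.14, adjusted p = 0.0108). Of 13 electron carriers and assembly factors, 3 were lower there and none higher: Cyc1, the cytochrome c1 of complex III (-0.57 ± 0.17, adjusted p = 0.0155), and Etfa (-0.55 ± 0.15, adjusted p = 0.00876) and Etfdh (-0.86 ± 0.14, adjusted p = 5.53e-05), which pass electrons from fatty acid oxidation to ubiquinone. Of 74 mitochondrial ribosomal proteins, 19 were lower and 1 higher in the beta-catenin transgenic tumours (median -0.34; -0.33 after quantile normalization), 19 lower and none higher in the Ikaros Plastic tumours (-0.34; 27 lower (against 10.8% of all tested genes) and -0.37 after), and 12 lower and 12 higher in the Cdkn2a knockout tumours (-0.065). Over all tested genes, 7.42% were lower and 11.4% higher in the beta-catenin transgenic, 7.85% and 15% in the Ikaros Plastic and 14.6% and 16.1% in the Cdkn2a knockout tumours. The 24 calls in the Cdkn2a knockout tumours were thus near the share of all tested genes in both directions. In the Ikaros Plastic tumours the median of the 84 oxidative phosphorylation genes was -0.30 as deposited and -0.06 after quantile normalization.

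Of 12 tested regulators of mitochondrial genes, Ppargc1b, a coactivator of mitochondrial biogenesis, was lower in the beta-catenin transgenic tumours (-1.06 ± 0.24, adjusted p = 0.00206) and the Cdkn2a knockout tumours (-0.44 ± 0.15, adjusted p = 0.0236). The Cdkn2a knockout tumours also had lower Tfb2m, a mitochondrial transcription factor (-1.05 ± 0.12, adjusted p = 4.59e-08), higher Tfb1m, its rRNA-methylating relative (0.56 ± 0.11, adjusted p = 0.000225), higher Gabpa, an ETS factor (0.47 ± 0.09, adjusted p = 0.000218), higher Myc (1.24 ± 0.19, adjusted p = 5.72e-06) and higher Yy1 (0.28 ± 0.10, adjusted p = 0.0292). Surf1, a complex IV assembly factor (-0.69 ± 0.11, adjusted p = 9.03e-06), and Cox17, a copper carrier for complex IV (-0.46 ± 0.13, adjusted p = 0.00626), were lower in the same tumours. Only called genes of these lists are named. Over all tested genes, 14.6% were lower and 16.1% higher in the Cdkn2a knockout tumours, and 7.42% were lower in the beta-catenin transgenic tumours.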

How the data were processed

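Total RNA was extracted with Trizol and biotinylated cRNA was hybridised to Affymetrix mouse arrays, per the labels' protocols. The deposited table holds MAS5 signals (linear intensity values), per the submitters' processing notes; no source used here states the MAS5 version, the scaling target or a genome build. In the file, every array has a mean of 250.063 to 250.129 after trimming 2% at each end. Array number limits the precision, and the labels do not say that tumours came from separate mice, so p-values measure only the spread between these samples.

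Of 22690 probe sets, 64 controls and those naming several genes were left out, which left 20380. Signals were analysed as log2(signal + 15.9), the offset being the 25th percentile of all signals, with the probe set of highest mean per gene. Genes above the array median in at least 2 arrays were tested (8810). A model of background means over all 47 arrays was fitted with limma 3.58.1 in R 4.3.3 (lmFit, eBayes with trend). Each background was set against the unweighted mean of the other 13. TLX1 positive and TLX1 negative tumours were compared in a separate fit of TLX1 status alone, without a term for background. That fit treats the TLX1 negative tumours as independent samples of a single group, although they come from 13 backgrounds. Both fits used Benjamini-Hochberg adjustment over all tested genes at 0.05. Quantile normalization was the alternative scale. The rule for named genes took the 12 of lowest F-test p, up to 3 called genes of largest difference in each direction per background, all genes called for TLX1 status, outlying subunits (over 1 log2 unit from their complex's median), tissue-restricted isoforms and genes whose probe sets disagree; further genes were chosen after their values were seen. The 84 genes and the companion and marker lists were chosen with earlier results of these data known. Fitting was tested on simulated data. Promoters are RefSeq GRCm38.p6. The gene of the p53 knockout is not reported here.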

Additional observations from a re-analysis of the deposited data

Results flagged for a closer look

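For 33 named genes, the 9 Cdkn2a knockout and the 6 TLX1 transgenic tumours (66 sets of log2 values) were examined for 1 tumour lying far from the rest, and 4 had one; chance gives about 1 in 20. Atp5o had a signal of 1551 in Cdkn2a knockout tumour 6, against 2255 to 3025 in the other 8. Ndufa9 had 1109 in Cdkn2a knockout tumour 8, against 1409 to 1572 in the other 8. Cox8c had 45.4 in TLX1 transgenic tumour 6, against 79.9 to 105 in the other 5. Ndufa10 had 1258.5 in TLX1 transgenic tumour 2, against 1787 to 2173 in the other 5.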

How the results depend on the processing

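Quantile normalization left 5 called genes in the Tal1 transgenic background (median 0.21), 1 in E2A knockout (median 0.12), 13 in Ikaros Plastic (median -0.058), 1 each in Tal1-LMO2 double transgenic and Nup98HoxD13 transgenic and 0 in LMO1 transgenic, and gave 20 for TLX1 status; the cause was not tested. Taking the probe set of largest interquartile range gave 2 called genes in LMO1 transgenic, 3 in olig1-LMO1 double transgenic, 2 in Pokemon transgenic and 22 for TLX1 status, and turned Ndufc1 in ThPOK transgenic (0.090) and Ndufa10 in beta-catenin transgenic tumours (0.30), which then rest on another probe set. Of 120 called differences of genes with other probe sets past the filter, 25 had the opposite sign in at least 1 of them. No filter, no trend or a larger offset each left 3 in Tal1-LMO2 double transgenic. With the Gapdh ratio as a covariate, 3 genes were called in TLX1 transgenic and 0 for TLX1 status (median -0.064), and Cox8a in TLX1 transgenic (0.045) and Cox8c (0.024), Ndufa13 (-0.051) and Ndufa2 (-0.19) for TLX1 status changed direction. With background as a random block, 0 were called for TLX1 status by limma; without TLX1 transgenic tumours 2, 5 and 6 it was 1, and 8 in TLX1 transgenic.

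With the title number as a replicate block, 14 genes were called in TLX1 transgenic, 8 in E2A knockout and 21 in Cdkn2a knockout. The numbers did not pair the tumours: the median correlation of deviations was -0.0032 over 230 same-numbered pairs, of which 27 were over 0.1, and 0.0039 over 772 others.

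Leaving out 1 tumour at a time gave 12 to 50 called genes in beta-catenin transgenic, 29 to 39 in Cdkn2a knockout, 13 to 35 in Tal1 transgenic, 1 to 18 in E2A knockout, 16 to 38 in Ikaros Plastic, 1 to 15 in Nup98HoxD13 transgenic, 5 to 24 in p53 knockout, 16 to 27 in TLX1 transgenic, 6 to 16 for TLX1 status, 3 to 8 in ThPOK transgenic, 1 to 9 in Tal1-LMO2 double transgenic, 1 to 3 in rag E2A knockout, 0 to 2 in Pokemon transgenic and 0 to 1 in LMO1 transgenic. Medians ranged from 0.31 to 0.63 in Tal1 transgenic, 0.13 to 0.50 in E2A knockout, 0.052 to 0.37 in rag E2A knockout and -0.25 to 0.089 in p53 knockout. Of 65 named differences, 49 kept their call after quantile normalization and 16 lost it, none changing direction. Among all called differences of the oxidative phosphorylation genes, some did change direction. These were 4 of 11 in Nup98HoxD13 transgenic, 3 of 30 in Ikaros Plastic, 1 of 13 in E2A knockout, 1 of 19 in p53 knockout and 1 of 31 in Tal1 transgenic. Without the 9 tumours with Mb or Ucp1 above the array median, chosen after seeing the data, 7 of 15 isoform differences kept their call. Groups of 2 or 3 tumours limit what could be detected.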
